A study of Caenorhabditis elegans with 12 samples.

Results

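The insulin receptor pathway of Caenorhabditis elegans was followed through 7 genes, daf-2, age-1, daf-18, akt-1, akt-2, sgk-1 and daf-16, in animals that lack members of the miR-58 family of microRNAs. The genes were found by name, ignoring case, and all 7 of them are among the 16309 names of the authors' deposited table. RNA of whole animals at the late L4 larval stage was sequenced from 4 genotypes with 3 samples each. The single mutant, mir-58, carries mir-58(n4640) on chromosome IV. The double mutant, mir-80; mir-58, carries nDf53 on chromosome III beside that allele. The quadruple mutant also has nDf54 on chromosome X, which takes away mir-81-82, so that it lacks 4 microRNA genes, and n4640 is common to all 3 mutants. The wild type was the Bristol strain N2. Animals of the single mutant and of wild type were harvested at 33 h on food. Harvest came 6 h later for the double mutant and 15 h later for the quadruple mutant, both of which develop slowly, so genotype and collection time cannot be told apart in them.

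In this pathway insulin-like peptides bind DAF-2, the receptor tyrosine kinase. Active DAF-2 turns on AGE-1, the catalytic subunit of phosphoinositide 3-kinase, which makes the membrane lipid PIP3, and DAF-18, a lipid phosphatase, removes that lipid again. PIP3 recruits AKT-1 and AKT-2, kinases that phosphorylate the FOXO transcription factor DAF-16 and keep it out of the nucleus, and SGK-1 is a related kinase. The pathway is known for its control of dauer arrest, lifespan, fat storage and stress resistance. Much of that control runs through changes in the proteins and their location rather than in the level of their transcripts.

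Only 1 of the 7 genes passed the test in any mutant, and it was daf-18 in the double mutant. The values are log2 fold changes of mutant over wild type with adjusted p-values, 1 pair per gene and mutant, as the authors computed them. A gene was called higher or lower where the adjusted p was under 0.05. Levels in single samples, the depth of the libraries and the spread between replicates were not analysed here, so no fold change can be given with an SD. The labels do not say whether the 3 samples of a genotype came from separate cultures, and the p-values may measure technical spread. All 3 comparisons share the same wild-type samples, so their values for a gene are not independent of each other.

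In the single mutant none of the 7 genes was called by the authors' test, where 7.44% of all listed genes were (1214 of 16309, DESeq per the submitters' processing notes). At an unadjusted p under 0.05, recovered from the adjusted values, 1 of the 7 passed, beside 18.5% of all genes. In the double mutant 1 of the 7 was called higher and none lower, where 16.4% of all genes were called (10.5% higher and 5.86% lower). Unadjusted, 2 of the 7 passed, beside 25.1% of all genes. In the quadruple mutant none was called, while 24% of all listed genes were (14.2% higher and 9.82% lower), and 3 of the 7 passed an unadjusted p under 0.05, beside 32.4% of all genes. The share of the pathway's genes called was thus near or below that of all genes in each mutant. The median log2 fold change of the 7 genes was 0.17, 0.35 and 0.32 in the single, double and quadruple mutants, where the median of all listed genes was -0.06, 0.08 and 0.11. The number of values above 0 was 7, 6 and 7 in that order, where 43.8%, 54.9% and 55.7% of all genes stood above 0. Measured from the median of all genes, 7, 5 and 7 of the 7 values lay above it.

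**Figure D1:**
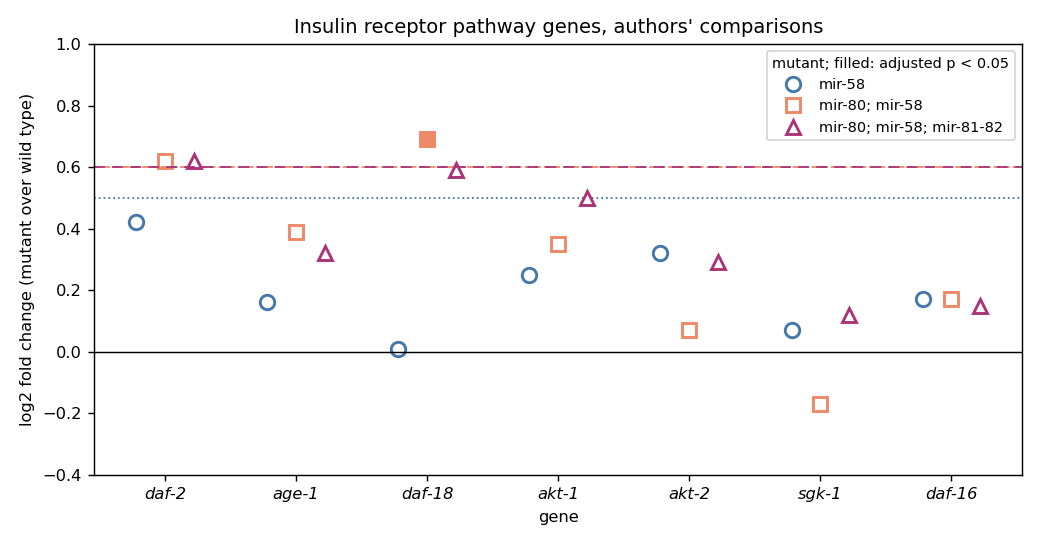
Log2 fold change over wild type (vertical axis) of the 7 pathway genes (horizontal axis) in the single mutant mir-58 (circles), the double mutant (squares) and the quadruple mutant (triangles), from the authors' comparisons and without error bars because none were given. Horizontal lines mark the smallest change called for any listed gene, 0.50 in the single mutant and 0.60 in both multiple mutants, and the single filled symbol is daf-18 at 0.69 in the double mutant.

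The receptor gene daf-2 had the smallest adjusted p of the 7 genes in the single and the quadruple mutant, without a call in any mutant. It lies on chromosome III, and the annotation gives it 6 coding transcripts with up to 5784 coding bases and a 3′ untranslated region of up to 1405 bases, the longest among the 7 genes. The authors' deposited table, where its name is written DAF-2, gives it a log2 fold change of 0.42 for the single mutant (adjusted p = 0.223). For the double mutant the authors' deposited table gives daf-2 0.62 (adjusted p = 0.0667), and for the quadruple mutant again 0.62 (adjusted p = 0.0539). These equal 1.34-fold, 1.54-fold and 1.54-fold, and none passed the threshold. By adjusted p daf-2 ranked at 4000 in the quadruple mutant, just behind the 3920 called genes.

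Downstream of the receptor, age-1 encodes the catalytic PI3-kinase subunit. It is on chromosome II, with 2 coding transcripts and up to 3546 coding bases. Its values over the single, double and quadruple mutants were 0.16, 0.39 and 0.32 (the authors' deposited table, adjusted p = 0.766, 0.361 and 0.439), and it was called in none. The annotation places other genes on its opposite strand. B0334.10 shares 192 exonic bases with age-1, and Y62F5A.10 lies over it without sharing exonic bases. By the authors' deposited table Y62F5A.10 was lower in the single mutant at -1.97 (adjusted p = 0.0203) and higher in both multiple mutants, at 2.57 and 2.71 (adjusted p = 2.56e-05 and 3.20e-06). Whether reads were counted by strand is not given in the sources used here. Over the 192 shared bases, reads of age-1 and of B0334.10 may therefore not be told apart. The part of either gene in the values of age-1 was not tested.

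The phosphatase gene daf-18 was the pathway's only call. It opposes AGE-1, lies on chromosome IV, and has 1 annotated coding transcript of 7 exons with 2886 coding bases, and no annotated gene overlaps it. According to the authors' deposited table daf-18 rose by a log2 fold change of 0.69, or 1.61-fold, in the double mutant (adjusted p = 0.0425). The authors' deposited table puts it at 0.01 for the single mutant (adjusted p = 1) and at 0.59 for the quadruple mutant (adjusted p = 0.0783), neither of them a call. The value in the quadruple mutant was 0.10 below that in the double mutant on the log2 scale, and that difference was not tested. In the double mutant daf-18 ranked at 2570 by adjusted p among the 2670 called genes, near the end of that list, and 19.9% of all listed genes had a higher log2 fold change. At an adjusted p under 0.01 the call was lost.

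The 3 kinase genes below PIP3 were called in no mutant. For akt-1, on chromosome V, the authors' deposited table gives 0.25, 0.35 and 0.50 over the single, double and quadruple mutants (adjusted p = 0.510, 0.391 and 0.138). It shares 8 exonic bases with rop-1 on the opposite strand, which by the authors' deposited table was at 0.08, -0.13 and -0.10 and not called. The second AKT kinase gene, akt-2 on the X chromosome, had values of 0.32, 0.07 and 0.29 (the authors' deposited table, adjusted p = 0.412, 0.978 and 0.535). Measured from the median of all genes, its value in the double mutant was below 0, at -0.01. The SGK-1 kinase gene, sgk-1, also on X, had values of 0.07, -0.17 and 0.12 (the authors' deposited table, adjusted p = 0.940, 0.783 and 0.871). It gave the single value below 0 among the 21 values of the pathway. AKT-1 and AKT-2 are related proteins, and how the authors' counting treated reads that fit both genes is not given in the sources used here.

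At the end of the pathway, daf-16, the FOXO transcription factor gene on chromosome I, had nearly the same value in each comparison. These were 0.17, 0.17 and 0.15 over the single, double and quadruple mutants by the authors' deposited table (adjusted p = 0.708, 0.807 and 0.802). On a linear scale they are 1.13-fold, 1.13-fold and 1.11-fold over wild type. The annotation gives daf-16 11 coding transcripts, the most of the 7 genes, over 26206 bases of gene. The noncoding RNA gene H36N01.5, on the opposite strand, shares 84 exonic bases with it. The isoforms of daf-16 start at different promoters and are reported to act in different tissues. The table has 1 value per gene name, so a shift between isoforms would not be seen in it.

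**Figure D2:**
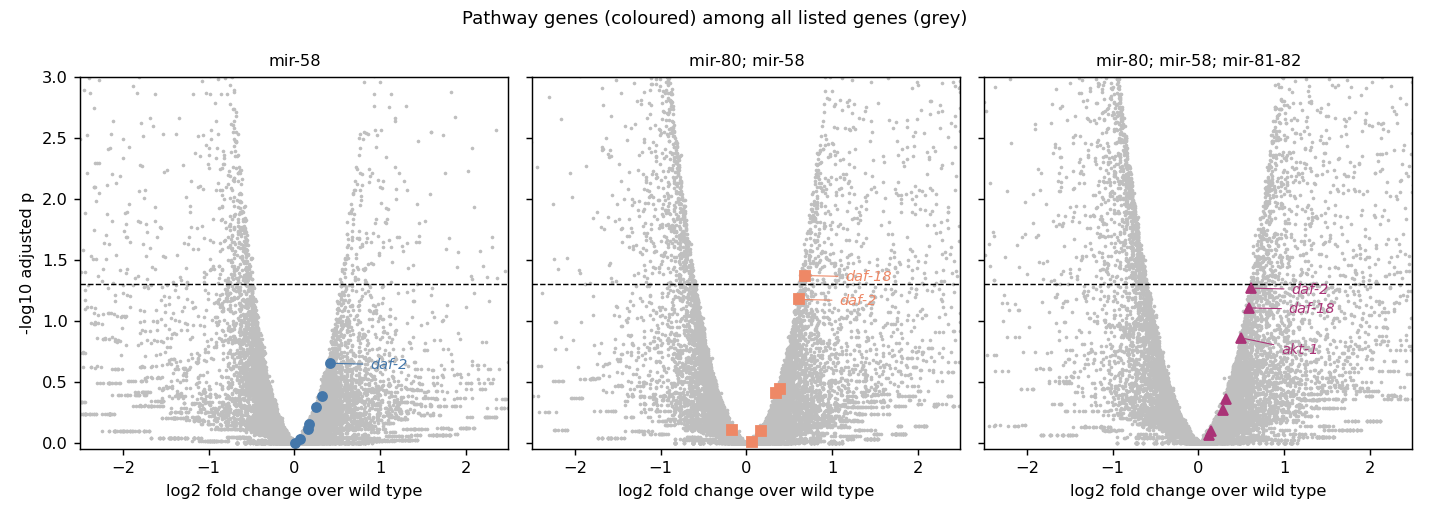
Adjusted p on a −log10 scale (vertical axis) against log2 fold change over wild type (horizontal axis, limited to the range from -2.5 to 2.5, with the vertical axis limited to 3) for all listed genes (grey) and the 7 pathway genes (coloured), 1 panel per mutant. The dashed line is an adjusted p of 0.05, and daf-18 in the double mutant, at 0.69, is the single coloured symbol above it; genes beyond the axis limits are not drawn.

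The size of change that the test could call bears on these results. For any listed gene the smallest log2 fold change called was 0.50 in the single mutant and 0.60 in both multiple mutants, equal to 1.41-fold and 1.52-fold. All 7 genes lay below that size in the single mutant, 5 of them in the double mutant and 6 in the quadruple mutant. No listed gene with a smaller change was called, so a missing call there differs from an absence of change. The receptor gene daf-2, at 0.62 in both multiple mutants, lay above that size and was not called. The reason for any missing call was not tested. Among genes with a change of 0.6 up to 0.8 in size, 20.2%, 20.4% and 27.4% were called in the single, double and quadruple mutants. Among genes of 2 and over, 54.3%, 82.4% and 84.7% were called.

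Each pathway gene was also set beside the other listed genes whose log2 fold change was of the same size within 0.02. For daf-18 in the double mutant there were 367 such genes, of which 81 were called and 72 (19.6%) had a smaller adjusted p. For daf-2 in the quadruple mutant there were 504, of which 52 were called and 73 (14.5%) had a smaller adjusted p. For daf-18 in the single mutant the adjusted p was 1, the largest possible, so no gene had a larger one. Over the other values of the pathway the share with a smaller adjusted p ran from 10.3% for akt-1 in the quadruple mutant to 34.4% for akt-2 in the double mutant.

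**Figure D3:**
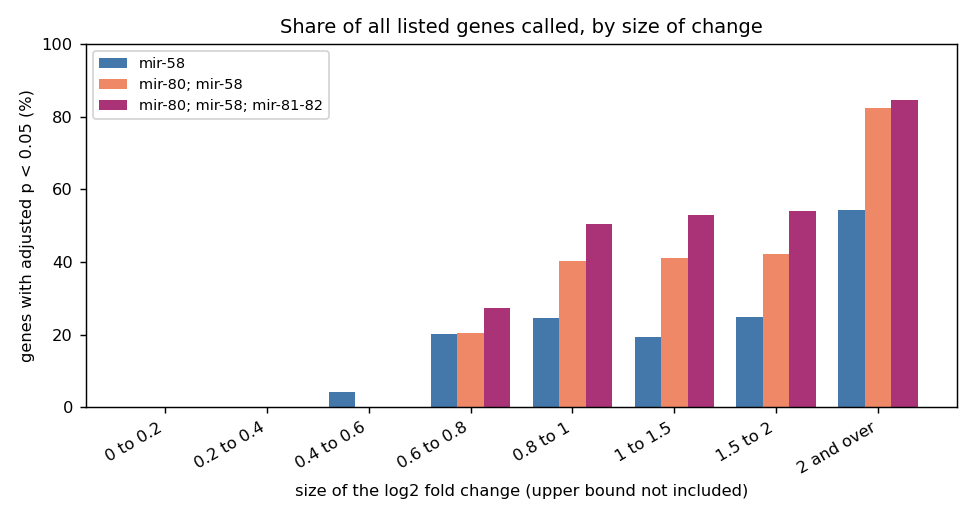
Percentage of all listed genes called at an adjusted p under 0.05 (vertical axis) by size of the log2 fold change (horizontal axis, in bins whose upper bound is not included), with bars for the single mutant, the double mutant and the quadruple mutant in that order. No gene with a change under 0.4 was called in any mutant, and 20.2% to 27.4% of genes between 0.6 and 0.8 were.

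The genotypes were also set against each other in sequence, by subtracting the deposited log2 fold changes, in which wild type cancels. These differences have no error and no test. From the single to the double mutant daf-18 differed by 0.68, and 18.8% of all listed genes differed by as much or more in that direction. The other 6 genes lay between -0.25 for akt-2 and 0.23 for age-1, with daf-2 at 0.20, akt-1 at 0.10, daf-16 at 0.00 and sgk-1 at -0.24. From the double to the quadruple mutant the order was another one. Here sgk-1, akt-2 and akt-1 stood highest at 0.29, 0.22 and 0.15, and for akt-2 and akt-1 23.9% and 30.4% of all genes differed by as much or more. The receptor gene daf-2 was at 0.00 in that step, age-1 at -0.07, daf-18 at -0.10 and daf-16 at -0.02. The median of the 7 differences was 0.10 in the first step and 0.00 in the second, beside 0.04 and 0.00 for all listed genes.

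Genes with a pattern like that of daf-18 were sought by the Euclidean distance between the 3 log2 fold changes of each listed gene. The nearest was gap-3, with values of 0.06, 0.70 and 0.61 by the authors' deposited table (distance 0.055). Next came ztf-20 and H08J11.2, at distances of 0.069 and 0.071. None of these was called in any mutant, and for gap-3 the authors' deposited table gives an adjusted p of 0.068 in the double mutant. In all 210 listed genes lay within a distance of 0.25 of daf-18.

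Partners that act directly on these proteins gave a single call. Of 11 such genes 10 are listed, and the call was aap-1, higher in the quadruple mutant, where 14.2% of all genes were higher. It encodes the adaptor subunit that works with AGE-1, and the authors' deposited table gives it 0.24, 0.52 and 0.77 in the 3 mutants (adjusted p = 0.594, 0.205 and 0.0195). The median of this list was 0.11, 0.16 and 0.08 in the single, double and quadruple mutants. The TOR kinase gene let-363 missed the threshold in the single mutant, where the authors' deposited table has it at 0.54 (adjusted p = 0.0514). The receptor adaptor gene ist-1 had 0.33, 0.34 and 0.55 by the authors' deposited table, none of them called. Subunits of the phosphatase PP2A, which acts on AKT-1 through PPTR-1, lay between -0.17 and 0.14 by the authors' deposited table (pptr-1, let-92 and paa-1), also uncalled. The gene of the kinase PDK-1 was not analysed here.

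Of 29 genes whose products bind, modify or work beside DAF-16, 26 are listed, and 1 was called higher in each mutant and none lower. Counted in either direction, that is below the share of all genes called, 7.44%, 16.4% and 24% over the single, double and quadruple mutants. Of all genes 1.65%, 10.5% and 14.2% were called higher. The 1 higher gene of 26 is thus above the matching share for the single mutant and below it for both multiple mutants. For the single mutant it was daf-12, a nuclear hormone receptor gene of the dauer decision, which the authors' deposited table puts at 0.58 (adjusted p = 0.0339). For both multiple mutants it was pqm-1, which the authors' deposited table puts at 0.79 and 1.14 (adjusted p = 0.0108 and 6.84e-05). PQM-1 is a transcription factor reported to be nuclear when DAF-16 is not. The medians of this list, 0.04, 0.12 and 0.20 in the 3 mutants, lay within 0.10 of the medians of all genes. The 14-3-3 genes ftt-2 and par-5, whose products hold phosphorylated DAF-16 in the cytoplasm, lay between -0.17 and 0.03 by the authors' deposited table and were not called.

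Genes known to respond to the pathway gave calls in every mutant, in both directions. Class 1 targets are those reported higher, and class 2 targets those reported lower, when DAF-2 is less active and DAF-16 enters the nucleus. Of 15 class 1 targets listed out of 22, 3 were higher and none lower in the single mutant, where 1.65% of all genes were higher, and the list median was 0.09. By the authors' deposited table they were the lysozyme gene lys-7 at 1.12, dod-3 at 1.00 and the superoxide dismutase gene sod-3 at 0.80 (adjusted p = 8.32e-07, 7.99e-03 and 0.0372). Of 10 class 2 targets listed out of 13, 3 were lower and none higher in the same mutant, beside 5.79% of all genes lower, at a list median of -0.64. In the authors' deposited table these were the yolk gene vit-2 at -2.17, dod-22 at -1.44 and dod-17 at -0.87 (adjusted p = 6.18e-16, 2.89e-04 and 4.83e-04).

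Some of these targets were also called in a multiple mutant, lys-7, dod-3 and dod-17 in the same direction and vit-2 in the opposite one. In the double mutant 4 class 1 targets were lower and none higher, at a list median of -0.43, where 5.86% of all genes were lower and 10.5% higher. The authors' deposited table has nnt-1 at -1.17, hsp-16.41 at -1.01, spp-1 at -0.94 and dod-6 at -0.65 (adjusted p = 7.26e-03, 3.01e-03, 9.65e-04 and 0.0345). In the quadruple mutant 3 of the 15 were higher and 4 lower, at a median of -0.53, where 14.2% of all genes were higher and 9.82% lower. Among the higher ones the authors' deposited table has dod-3 at 3.02, lys-7 at 2.42 and lea-1 at 1.07 (adjusted p = 3.49e-22, 5.04e-19 and 1.78e-04). Among the lower ones the authors' deposited table has hsp-12.3 at -1.40, dod-6 at -0.76, hsp-16.41 at -0.74 and spp-1 at -0.65 (adjusted p = 0.0377, 0.0105, 0.0400 and 0.0401). For sod-3, a well known direct target of DAF-16, the authors' deposited table gives -0.43 and -0.85 in the multiple mutants, neither of them called (adjusted p = 0.635 and 0.174). Small heat shock genes such as hsp-16.41 have similar copies, so its values may be uncertain. How reads that fit more than 1 copy were counted is not given in the sources used here.

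Among class 2 targets the double mutant had 2 of 10 higher and 2 lower, at a median of 0.19, where 10.5% of all genes were higher and 5.86% lower. By the authors' deposited table the higher ones were dod-23 at 3.15 and vit-2 at 1.70, and the lower ones dod-17 at -1.06 and dod-19 at -0.98 (adjusted p = 1.03e-04, 4.23e-09, 1.14e-03 and 6.56e-04). In the quadruple mutant 3 were higher and 1 lower, at a median of 0.90 beside 0.11 for all genes. Of all genes 14.2% were higher there, and the 1 lower gene of 10 is near the 9.82% that were lower. Here the authors' deposited table has dod-23 at 3.24, the insulin-like peptide gene ins-7 at 1.97 and vit-2 at 1.84, against dod-17 at -1.64 (adjusted p = 2.84e-05, 1.14e-04, 1.58e-10 and 5.42e-07). Targets of this kind also answer to other regulators, and yolk genes are switched on at the passage to adulthood.

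**Figure D4:**
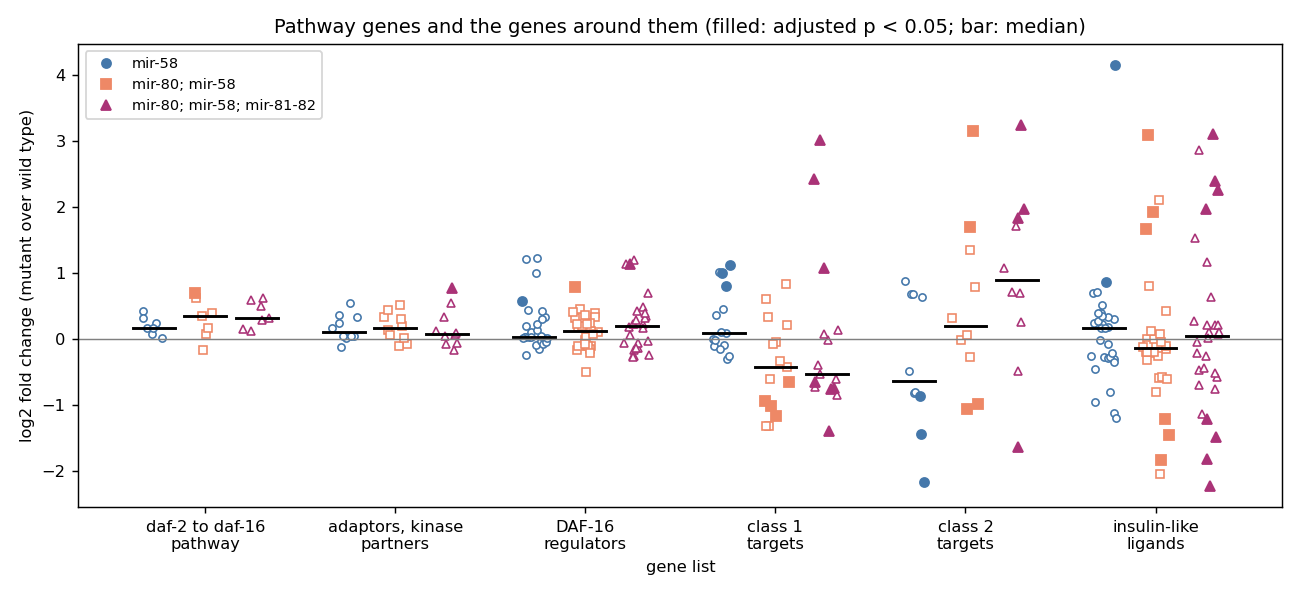
Log2 fold change over wild type (vertical axis) of each listed gene in 6 gene lists (horizontal axis), for the single mutant (circles), the double mutant (squares) and the quadruple mutant (triangles), with called genes filled and the list median as a bar. The 7 pathway genes lie between -0.17 and 0.69 and the DAF-16 regulators between -0.50 and 1.22, while target and ligand genes spread over the range from -2.23 to 4.15.

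The ligands of DAF-2 form a large family, of which 30 of 40 genes are listed. In the single mutant 2 were higher and none lower, in the double mutant 3 were higher and 3 lower, and in the quadruple mutant 4 were higher and 4 lower. Of all genes, 1.65% were higher in the single mutant, 10.5% were higher and 5.86% lower in the double mutant, and 14.2% were higher and 9.82% lower in the quadruple mutant. For the single mutant the authors' deposited table has ins-16 at 4.15 and ins-33 at 0.87 (adjusted p = 0.0194 and 7.23e-03). For the double mutant the authors' deposited table has ins-37 at 3.09, ins-11 at 1.93 and ins-29 at 1.66, against ins-12 at -1.83, ins-35 at -1.45 and ins-33 at -1.21. For the quadruple mutant the authors' deposited table has ins-37 at 3.10, ins-4 at 2.39, ins-11 at 2.25 and ins-7 at 1.97. Their adjusted p-values were 7.41e-06, 3.42e-08, 6.57e-04 and 1.14e-04. Lower there were ins-13 at -2.23, ins-12 at -1.81, ins-35 at -1.48 and ins-33 at -1.21. These had adjusted p-values of 3.74e-11, 0.0453, 0.015 and 9.21e-03. Some peptides of the family are reported to activate the receptor and others to block it.

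Markers of sperm, oocytes, intestine and muscle had calls in the same comparisons. Of 15 listed sperm markers 10 were lower in the single mutant, with a list median of -3.08, and all 15 were higher in each multiple mutant, with medians of 3.94 and 3.68. Of 12 oocyte markers 6 were lower in the single mutant, while 8 and 6 were higher in the double and quadruple mutants. Germline markers had 6 of 13 lower in the single mutant and 1 higher in each multiple mutant. Intestinal markers had 1, 6 and 7 of 12 lower and none higher in the 3 mutants, and muscle markers 4, 4 and 9 of 12 lower, with 1 higher in the single mutant. Neuronal markers had 3, 0 and 2 of 14 higher, and of 10 hypodermal markers 1 was lower in the single mutant and 1 higher in each multiple mutant. Of all genes, 1.65% were higher and 5.79% lower in the single mutant, and 10.5% higher and 5.86% lower in the double mutant. In the quadruple mutant 14.2% were higher and 9.82% lower. The neuronal and hypodermal counts in the quadruple mutant are near its share of higher genes. The germline counts in both multiple mutants and the hypodermal count in the double mutant are also near or below these shares. The 1 intestinal and 1 hypodermal marker lower in the single mutant are likewise near the share of lower genes. In whole animals fewer cells of a type and less RNA per cell cannot be told apart. The part of the marker changes in the values of daf-18 and of the target genes was not tested.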

How the data were processed

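RNA sequencing of 12 samples, 3 for each of 4 genotypes taken from the sample titles, was used through the authors' own comparisons. Their deposited table holds log2 fold changes of each of the 3 mutants over wild type, per the file headers. It also holds an adjusted p-value for each of them, per the file headers, for 16309 gene names. The submitters' processing notes name DESeq, with no version. The aligner, counting, strand, genome build and method of adjustment are not given in the sources used here. The planned quasi-likelihood fit to counts and the alternatives that need counts were therefore not run, and depth per sample is unknown.

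The 7 genes and all lists were chosen with earlier results of these data known. Genes were called at an adjusted p under 0.05, and percentages are of all listed genes. Genes were named by rule: the 7 genes, the called genes of each list (up to 6 per list and mutant), the 3 nearest patterns of a called pathway gene, and called neighbours. Other genes are named for context, with values, and were chosen after their values were seen. Unadjusted p-values were recovered as the adjusted p times its rank over 16309, assuming a Benjamini-Hochberg adjustment, and this was tested on simulated data. Gene models came from Ensembl release 115 of WBcel235, used for chromosomes, lengths and overlaps and not for coordinates, since the build of the table is not given. Of the list names, 7 were matched through RefSeq sequence names. Seed matches and sequences of the genes were not used here. Values were computed in Python 3.11.15 with numpy 2.4.6 and pandas 2.3.3, and plotted with matplotlib 3.10.9.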

Additional observations from a re-analysis of the deposited data

How the results depend on the processing

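Of the 7 pathway genes, the number called in the double mutant (1) was 0 at an adjusted p under 0.01 and 2 under 0.1 (daf-18 and daf-2), and stayed at 1 with a change of at least 1.5-fold. In the quadruple mutant (0) it was 2 under 0.1, again daf-2 and daf-18, and in the single mutant it was 0 under each of these. At a recovered unadjusted p under 0.05, chosen after seeing the data, it was 1, 2 and 3 in the 3 mutants. Of the 90 genes of the 5 other pathway lists, 9, 15 and 20 were called in the 3 mutants. Of all genes 7.44%, 16.4% and 24% were called, so the counts in both multiple mutants are near those shares. Under 0.01 the double mutant had 9 list genes and the quadruple mutant 13, and the other alternatives moved the list counts by at most 1.5 times. Shares of all genes at an adjusted p under 0.01 or 0.1 were not computed. Centring on the median of all genes kept the sign of 20 of 21 pathway values, the exception being akt-2 in the double mutant, at -0.01 instead of 0.07. The same centring, added after seeing the data, put the median step from the single to the double mutant at -0.04 (0.10 as deposited) and that from the double to the quadruple mutant at -0.03 (0.00 as deposited). It uses the median of all genes in each mutant, another reference than the median of all differences (0.04 and 0.00) given above. The first step is thus above 1 reference and below the other. Causes were not tested, beyond the fewer or more genes that a stricter or looser threshold lets pass. No paired analysis was possible because the table holds comparisons and no values per sample; fits without single replicates, other normalisations and filters were not run for the same reason.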

Other observations

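Genes beside the pathway genes on the chromosome were also read from the table. In the annotation the next protein-coding gene to daf-18 on 1 side is garr-1, on the opposite strand, listed as Y66H1A.4. For garr-1 the authors' deposited table gives -0.43, -0.70 and -0.91 over the single, double and quadruple mutants (adjusted p = 0.127, 0.018 and 1.59e-03), with calls in both multiple mutants. The next gene on the other side, eri-1, which acts in RNA interference, had 0.05, 0.21 and 0.45 by the authors' deposited table, none of them called. Beside akt-1, C12D8.9 was called in both multiple mutants, and the authors' deposited table puts it at 3.57 and 3.37 there (adjusted p = 8.49e-04 and 1.84e-03) and at -2.34 in the single mutant, uncalled (adjusted p = 0.580). Beside daf-16, B0205.4 was called in the quadruple mutant, where the authors' deposited table puts it at 1.15 (adjusted p = 0.0115).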
